A study of Homo sapiens with 4 samples.

Results

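The oligoadenylate synthetase (OAS) family was followed through 4 RNA sequencing libraries from 2 human cancer cell lines. Its members were taken as the table lines whose symbol is OAS1, OAS2, OAS3 or OASL, which are 4 of 59533 genes analysed. The lines were HCC1937, derived from a breast carcinoma, and THP-1, derived from an acute monocytic leukaemia. Per the labels, every library, DAC and untreated alike, came from p53-/- cells carrying p53-R282W by infection; this mutant protein is altered in the DNA-binding domain of p53. DAC is decitabine, a deoxycytidine analogue that traps DNA methyltransferases and lowers DNA methylation in dividing cells. HCC1937 cells were given 0.3 µM DAC for 5 days, and THP-1 cells were given 5 µM DAC for 2 days. No day is listed for the untreated libraries, so whether they were matched in time to the DAC libraries is not known. The 4 groups, HCC1937 with DAC, HCC1937 untreated, THP-1 with DAC and THP-1 untreated, hold 1 library each. No library without the p53 construct was analysed here, and the labels give neither a vector nor whether the infected cells were a clone or a pool. With 1 library per group no difference within a line has a replicate check, so none is given a p-value. Because dose, time and line all differ between the pairs, the responses of the lines are set side by side.

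OAS proteins are cytoplasmic sensors of double-stranded RNA. When they bind it, OAS1, OAS2 and OAS3 join ATP into short 2'-5'-linked oligoadenylates (2-5A), and 2-5A activates a latent endonuclease that cuts cellular and viral RNA and so stops translation. These enzymes are built from repeats of a common nucleotidyltransferase unit, of which OAS3 carries the most and OAS1 the fewest. OASL keeps the fold but not the enzymatic activity; it carries ubiquitin-like domains, raises signalling by the RNA sensor RIG-I and restrains the DNA sensor cGAS. Transcription of all of them is known to follow interferon, through a complex of STAT proteins and IRF9 that binds an interferon-stimulated response element (ISRE), and OASL can also be switched on by IRF3 without interferon.

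The family lies on chromosome 12 in hg38 (positions from GENCODE 29). OAS1 (ENSG00000089127.12, 112906777 to 112933222), OAS3 (ENSG00000111331.12, 112938352 to 112973249) and OAS2 (ENSG00000111335.12, 112978395 to 113011723) stand in a row on the plus strand and together cover 104.9 kb. The gap between OAS1 and OAS3 is 5129 bases and that between OAS3 and OAS2 is 5145 bases. OASL (ENSG00000135114.12, 121019111 to 121039242) lies on the minus strand, 8.01 Mb beyond OAS2. An antisense transcript, AC004551.1, runs across the cluster on the other strand. Whether the counting used strand is not given in the sources used here. AC004551.1 itself was listed at 0.09 FPKM with DAC and 0 untreated in HCC1937, and had no value in THP-1. Whether it affected the reads counted for the OAS genes was not tested. OASL2P, a pseudogene next to OASL, was listed at 0.2 FPKM with DAC and 0 untreated in HCC1937, and had no value in THP-1.

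The promoter windows below show which interferon response letters stand in front of 2 members of the cluster. RefSeq windows of GRCh38.p14 were matched for OAS1 and OAS3, and the 250 bases before the RefSeq start are printed 5' to 3' on the plus strand, chr12:112906712-112906961 for OAS1 and chr12:112938224-112938473 for OAS3. Capitals mark matches, on either strand, to the ISRE core (GAAA, any 2 bases, GAAA) or to its form with 1 spacer base, GAAANGAAA; overlapping matches are joined. Both RefSeq starts lie inside the gene as GENCODE draws it.
OAS1: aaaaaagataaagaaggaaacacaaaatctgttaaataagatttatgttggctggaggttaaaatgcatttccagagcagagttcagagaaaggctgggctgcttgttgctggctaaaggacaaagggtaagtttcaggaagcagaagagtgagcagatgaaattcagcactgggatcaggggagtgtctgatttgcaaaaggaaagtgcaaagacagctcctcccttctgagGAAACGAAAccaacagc
OAS3: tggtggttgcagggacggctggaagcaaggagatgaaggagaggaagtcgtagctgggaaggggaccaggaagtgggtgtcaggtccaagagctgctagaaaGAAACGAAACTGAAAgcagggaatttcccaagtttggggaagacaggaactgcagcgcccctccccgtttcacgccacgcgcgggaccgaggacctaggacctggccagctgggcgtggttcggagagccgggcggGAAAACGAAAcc
In the window of OAS1 the 1 match has the single spacer base, GAAACGAAA, and begins at position -17 from the start. OAS3 holds 2 matches to the ISRE core, beginning at -143 and at -12, and a GAAANGAAA match at -148 that overlaps the farther one. Of 35116 promoter windows of 300 bases, 3.57% held the ISRE core, 0.26% held it 2 or more times and 3.12% held GAAANGAAA. The form with 1 spacer base was searched after the letters had been seen. The core of the interferon gamma element, TTCNNNGAA, matched in the OAS1 window at -168 and had no match in the OAS3 window; 7.66% of all windows held it. The 2 windows differed in CpG, the dinucleotide at which DNA is methylated. The OAS1 window holds 1 CpG, and 96.0% of windows hold as many or more. The OAS3 window holds 20 CpG, and 41.2% of windows hold as many or more, with a median of 14. No promoter window was at hand for OAS2 or OASL, so neither was searched for these letters or for CpG.

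In HCC1937 the 3 enzyme genes stood higher in the DAC library and OASL stood lower. Values are given as FPKM, which corrects a read number for the length of the gene and the depth of the library. OAS3 was at 40.2 FPKM with DAC, against 11.9 FPKM untreated, a ratio of 3.38 with a 95% counting interval of 3.19 to 3.58. OAS2 was at 8.34 FPKM with DAC and 2.88 FPKM untreated, a ratio of 2.90 (2.51 to 3.35). These intervals come from approximate read numbers and cover counting error only, not differences between cultures. A gene was called where log2(FPKM + 1) differed by 1 or more between the libraries, that is 2-fold. Both genes passed, with log2 differences of 1.68 for OAS3 and 1.27 for OAS2. OAS1 was at 15.1 FPKM with DAC and 7.81 FPKM untreated. Its ratio of 1.93 (1.70 to 2.20) has an interval that spans 2-fold, and its log2 difference of 0.87 was not called. In bulk RNA, more cells that express a gene and more RNA per cell cannot be told apart.

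OASL, the member without enzymatic activity, was lower with DAC in HCC1937. It was at 42.25 FPKM with DAC and 62.06 FPKM untreated, a ratio of 0.681 (0.647 to 0.716). The interval lies wholly below 1, and the log2 difference of -0.54 did not reach the 2-fold rule. About 2583 reads with DAC and 3791 reads untreated stand behind these OASL values, so counting error is small beside the difference.

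Thus 2 of 4 members were called higher in HCC1937 and 0 lower, where 10.3% of 14058 genes kept (at least 1 FPKM in a library of the pair) were called higher and 1.44% lower. At 1.5-fold, OAS1 passed as well, making 3 of 4 higher and 0 lower, against 21.9% of genes kept higher and 5.91% lower. The median log2 difference was 1.07 over the 4 members and 0.19 over all genes kept. Of all genes kept, 96.7% had a smaller difference than OAS3, 93.8% than OAS2, 87.6% than OAS1 and 6.86% than OASL. The general shift of 0.19 depends on scaling. It was -0.06 under median-of-ratios scaling and -0.08 under upper-quartile scaling, and higher genes made up 87.8% of all calls as deposited, against 70.5% and 68.6% under those scalings. OAS3 (1.40 and 1.38) and OAS2 (1.03 and 1.01) were still called under both, OAS2 barely, while OASL stood at -0.83 and -0.85.

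**Figure D1:**
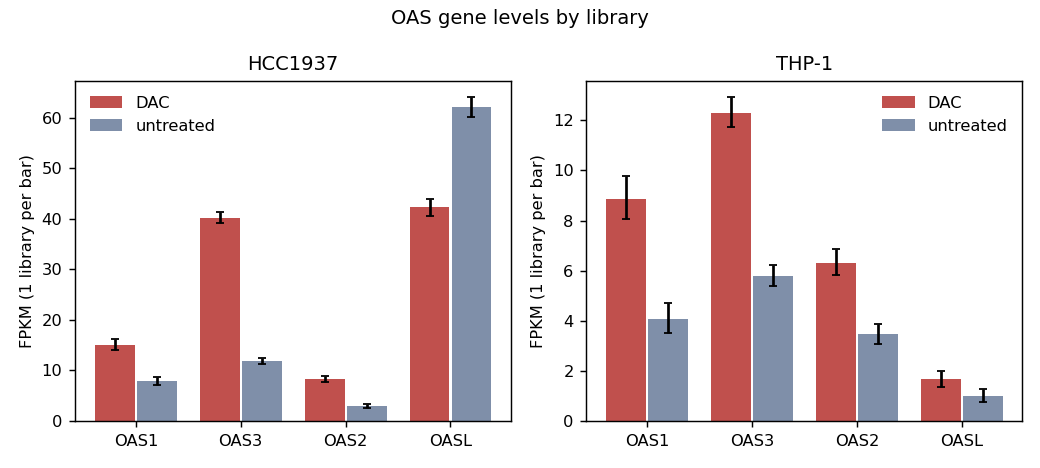
FPKM of the 4 OAS genes in each library of HCC1937 and of THP-1 (y axes differ between the lines), DAC beside untreated, with 95% counting intervals as bars and 1 library per bar. OAS3 rose to 40.2 FPKM with DAC in HCC1937, against 11.9 untreated, and OASL is the member with the lower bar under DAC there (42.25 and 62.06 FPKM).

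In THP-1 all 4 members stood higher in the DAC library, and none reached 2-fold on log2(FPKM + 1). OAS3 was at 12.31 FPKM with DAC and 5.79 FPKM untreated, a ratio of 2.13 (1.95 to 2.32). OAS1 was at 8.87 FPKM with DAC and 4.08 FPKM untreated, a ratio of 2.17 (1.83 to 2.59). The ratio exceeds 2 in both, while the pseudocount of 1 puts the log2 differences just under the rule, at 0.97 for OAS3 and 0.96 for OAS1. With a pseudocount of 0.1 both were called, at 1.08 and 1.10.

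OAS2 in THP-1 was at 6.32 FPKM with DAC and 3.45 FPKM untreated, a ratio of 1.83 (1.59 to 2.10) and a log2 difference of 0.72. OASL was at 1.66 FPKM with DAC and 0.99 FPKM untreated, a ratio of 1.68 (1.22 to 2.33). This OASL ratio rests on about 107 and 63 reads, and its log2 difference was 0.42. By the 2-fold rule 0 of 4 members were called in either direction, where 1.14% of 12075 genes kept were called higher and 0.364% lower. At 1.5-fold, 3 of 4 members passed on the higher side (OAS1, OAS2 and OAS3), against 3.3% of all genes kept, and 0 on the lower side, against 1.0%. The median log2 difference was 0.84 over the 4 members and 0.07 over all genes kept. Although smaller in size than in HCC1937 for OAS3 and OAS2, the differences lay at least as far out among all genes of the line, with 98.8% of genes below OAS3, 98.8% below OAS1, 97.7% below OAS2 and 93.5% below OASL.

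**Figure D2:**
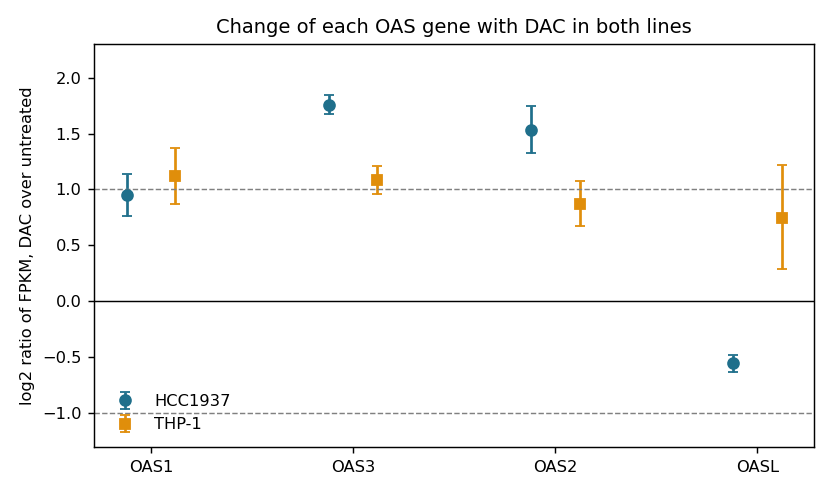
Log2 ratio of FPKM, DAC over untreated, of each OAS gene in HCC1937 (circles) and THP-1 (squares), with 95% counting intervals; dashed lines mark 2-fold. In HCC1937 the ratio is 3.38 for OAS3, 2.90 for OAS2, 1.93 for OAS1 and 0.681 for OASL, while in THP-1 the 4 ratios run from 1.68 to 2.17.

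The lines differed most in OASL. The OASL intervals of the DAC ratio lie on opposite sides of 1, at 0.647 to 0.716 in HCC1937 and 1.22 to 2.33 in THP-1. For OAS3 the interval of HCC1937 (3.19 to 3.58) lies above that of THP-1 (1.95 to 2.32), and for OAS2 likewise (2.51 to 3.35 and 1.59 to 2.10). For OAS1 the intervals overlap (1.70 to 2.20 and 1.83 to 2.59). These comparisons cover counting error in 1 pair of libraries per line, and whether the responses differ beyond culture variation was not tested. The intervals use the values as deposited, and whether they stay apart under the other scalings was not tested. Under upper-quartile scaling the log2 difference of OAS2 was 1.01 in HCC1937 and 0.67 in THP-1, against 1.27 and 0.72 as deposited. How often the intervals of other genes lie apart between the lines was not counted.

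A fit over both lines gave no call for the family. Its SE values are moderated, since limma draws the variance of each gene toward the trend over all genes. They are therefore not the spread of a gene between its 2 lines, where OASL stood at -0.54 in HCC1937 and 0.42 in THP-1. limma, with line as a block and 1 residual degree of freedom, put the mean log2 difference at 1.32 ± 0.22 (SE) for OAS3, with a Benjamini-Hochberg adjusted p of 0.64. The limma value was 0.99 ± 0.21 (SE) for OAS2 and 0.91 ± 0.17 (SE) for OAS1, each with an adjusted p of 0.64. These 3 genes were higher in 2 of 2 lines, where 66.2% of all genes kept in HCC1937 and 65.0% in THP-1 stood above 0. OASL averaged -0.06 ± 0.26 (SE), with an adjusted p of 0.93 by limma. Of 9798 genes tested 0 passed an adjusted p of 0.05 (0%), while 625 had an unadjusted limma p under 0.05.

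The balance of the family differed between the lines before and after DAC. Ratios between genes of the same library do not depend on how libraries are scaled. They do depend on the gene lengths used, which may differ between the lines. In HCC1937 OASL made up 39.9% of the summed FPKM of the family with DAC, against 73.3% untreated. The ratio of OAS3 to OASL was 0.952 with DAC and 0.192 untreated in that line. In THP-1 OASL made up 5.69% of the sum with DAC and 6.92% untreated, and the ratio of OAS3 to OASL was 7.42 with DAC and 5.85 untreated. The enzyme genes also shifted against each other in HCC1937, where OAS3 over OAS1 was 2.66 with DAC and 1.52 untreated. In THP-1 that ratio was 1.39 with DAC and 1.42 untreated.

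In HCC1937 with DAC the order was OASL, OAS3, OAS1 and OAS2, and the counting intervals of OASL (40.6 to 43.9 FPKM) and OAS3 (39.1 to 41.3 FPKM) overlapped. Untreated HCC1937 had the same order with no overlap, and OASL stood above 93.3% of genes with at least 1 FPKM. In both THP-1 libraries the order was OAS3, OAS1, OAS2 and OASL. There the intervals of OAS1 (3.52 to 4.70 FPKM) and OAS2 (3.08 to 3.85 FPKM) overlapped untreated and none overlapped with DAC. The sum of the family was 105.9 FPKM with DAC and 84.65 FPKM untreated in HCC1937, and 29.2 FPKM with DAC and 14.3 FPKM untreated in THP-1. Levels are compared between lines only roughly, since the THP-1 values may rest on other gene lengths.

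**Figure D3:**
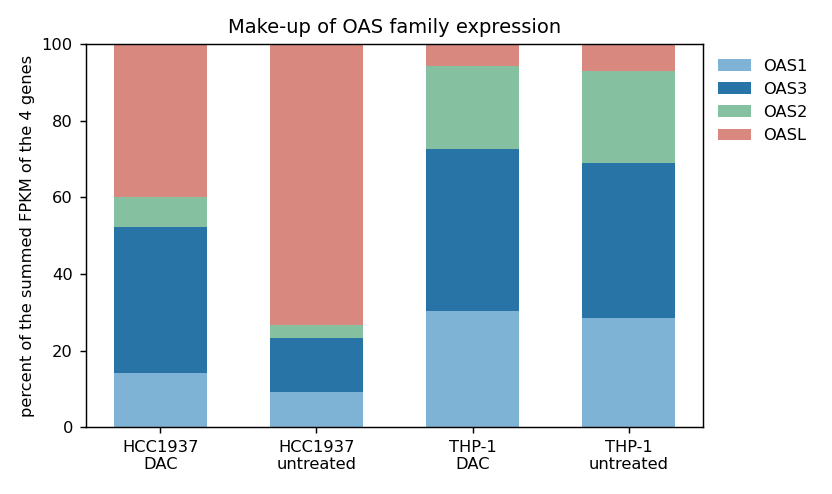
Share of each OAS gene in the summed FPKM of the 4 genes, in percent, in 1 library per bar. OASL takes 39.9% with DAC and 73.3% untreated in HCC1937, against 5.69% with DAC and 6.92% untreated in THP-1.

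The spacing of the values put the depth at 18.7 M (mega) reads in each library of HCC1937. For THP-1 it was 19.7 M with DAC and 19.5 M untreated. All 13 epithelial markers reached 1 FPKM in both HCC1937 libraries, and 3 of them with DAC and 2 untreated did in THP-1. In HCC1937, KRT14 (112 FPKM with DAC, 14.86 untreated) and TP63 (12.15 FPKM with DAC, 1.56 untreated) were called higher, 2 of 13 epithelial markers. CDH1 was at 117 FPKM with DAC and 58.5 FPKM untreated (log2 0.98). Over all genes kept, 10.3% were called higher in HCC1937 and 1.14% in THP-1. The other 10 epithelial markers had log2 differences of -0.12 to 0.47 in HCC1937, among them KRT5 (-0.12), CDH3 (-0.10) and KRT17 (0.02). All 15 myeloid markers reached 1 FPKM in both THP-1 libraries, and 4 with DAC and 1 untreated did in HCC1937. The summed level of the myeloid markers in HCC1937 was 15.5 FPKM with DAC and 10.0 FPKM untreated, with LYZ at 0 in both. TYROBP (3.24 FPKM with DAC, 0 untreated) and CSF1R (1.54 FPKM with DAC, 0.22 untreated) were called higher there, and CD14 was at 7.06 FPKM with DAC and 8.69 FPKM untreated. In THP-1 the epithelial markers summed to 8.29 FPKM with DAC and 4.55 FPKM untreated, with KRT5 and KRT14 at 0 in both. KRT17 (2.75 FPKM with DAC, 0.52 untreated, log2 1.30) was called higher in THP-1, KRT8 was at 2.65 FPKM with DAC and 1.12 FPKM untreated (log2 0.78), and TP63 at 1.25 FPKM with DAC and 1.7 FPKM untreated. No myeloid marker was called in THP-1. The part of these markers in the OAS differences was not tested.

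The rest of the 2-5A pathway was not called in either line, with 0 of 3 kept genes in HCC1937 and 0 of 4 in THP-1. For this list and those below, the shares of all genes kept that were called higher are 10.3% in HCC1937 and 1.14% in THP-1. Those called lower are 1.44% and 0.364%. ABCE1, a ribosome recycling factor, was at 18.66 FPKM with DAC and 14.34 FPKM untreated in HCC1937, and at 27.08 FPKM with DAC and 23.84 FPKM untreated in THP-1. PDE12, a phosphodiesterase that degrades 2-5A, was at 4.87 FPKM with DAC and 3.51 FPKM untreated in HCC1937, and at 10.95 FPKM with DAC and 11.55 FPKM untreated in THP-1. AKAP7, known to cleave 2-5A in mice, was at 3.04 FPKM with DAC and 3.28 FPKM untreated in THP-1 and below 1 FPKM in HCC1937.

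The other sensors of foreign nucleic acid had 1 of 9 kept genes higher and 0 lower in HCC1937, at a median log2 difference of 0.55. That is near the 10.3% of all genes kept that were called higher in the line. In THP-1 0 of 7 were called in either direction, at a median of 0.30, beside 1.14% of all genes kept called higher. IFI16, a DNA sensor, was called, at 3.86 FPKM with DAC and 0.98 FPKM untreated in HCC1937, and was at 7.05 FPKM with DAC and 5.04 FPKM untreated in THP-1. IFIH1 (MDA5), a helicase that senses long double-stranded RNA, was at 13.84 FPKM with DAC and 8 FPKM untreated in HCC1937 (log2 0.72), and at 5 FPKM with DAC and 3.68 FPKM untreated in THP-1 (log2 0.36). EIF2AK2 (PKR), a kinase that binds the same ligand as OAS and halts translation, was at 7.46 FPKM with DAC and 4.6 FPKM untreated in THP-1 (log2 0.60). In HCC1937 EIF2AK2 was at 7.02 FPKM with DAC and 4.48 FPKM untreated (log2 0.55). CGAS, a DNA sensor whose fold resembles that of OAS, was at 13.19 FPKM with DAC and 8.21 FPKM untreated in HCC1937 (log2 0.62). It had no value in THP-1.

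Of 21 interferon genes, 16 were listed at 0 in both HCC1937 libraries and 20 in both THP-1 libraries. The exceptions with at least 1 FPKM were interferons of the lambda type in HCC1937. IFNL1 was at 4.55 FPKM with DAC and 4.28 FPKM untreated, a log2 difference of 0.07. IFNL2 (1.18 FPKM with DAC, 0.73 untreated) and IFNL3 (1.32 FPKM with DAC, 1.59 untreated) are near-identical copies, so the split of reads between them is uncertain. IFNLR1, their receptor chain, was at 4.96 FPKM with DAC and 3.13 FPKM untreated in HCC1937 and listed at 0 in both THP-1 libraries. Receptors and kinases of the interferon pathway had 0 of 8 kept genes called in each line, at medians of -0.02 in HCC1937 and 0.07 in THP-1. IFNAR1, a chain of the type I receptor, was at 3.49 FPKM with DAC and 2.35 FPKM untreated in HCC1937. JAK2, a receptor kinase, was at 8.16 FPKM with DAC and 6.2 FPKM untreated in THP-1. Of the interferon gamma receptor chains, IFNGR1 had a log2 difference of -0.26 in HCC1937 and 0.01 in THP-1, and IFNGR2 of -0.07 in HCC1937 and -0.13 in THP-1. TYK2, a kinase of the type I receptor, was at 90.85 FPKM with DAC and 83.71 FPKM untreated in THP-1.

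Of the transcription factors downstream, 1 of 8 kept genes was higher in HCC1937 and 0 lower as deposited. That is near the 10.3% of all genes kept that were called higher in the line. IRF1 was called lower in HCC1937 under both other scalings, and 0 of 9 factors were called in THP-1. IRF7, which carries the later interferon response, was at 17.25 FPKM with DAC and 0.12 FPKM untreated in HCC1937, a log2 difference of 4.03 that was the largest among these lists. In THP-1 IRF7 was at 12.55 FPKM with DAC and 8.12 FPKM untreated (log2 0.57). IRF9, the DNA-binding part of the STAT complex, was at 13.24 FPKM with DAC and 7.62 FPKM untreated in THP-1 (log2 0.72). In HCC1937 IRF9 was at 5.01 FPKM with DAC and 3.85 FPKM untreated (log2 0.31). IRF8, a myeloid transcription factor, was at 161 FPKM with DAC and 232 FPKM untreated in THP-1 (log2 -0.53), and below 1 FPKM in both HCC1937 libraries. IRF1, an activator induced by interferon gamma, was at 10.7 FPKM with DAC and 19.67 FPKM untreated in HCC1937, on the same side as OASL. Its log2 difference was -0.82 as deposited, -1.09 under median-of-ratios and -1.11 under upper-quartile scaling.

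Feedback genes had 2 of 5 higher in HCC1937 and 0 under either other scaling, and 0 of 5 in THP-1. The shares of all genes kept called higher, as deposited, were 10.3% and 1.14%. USP18, which shuts off interferon receptor signalling, was at 15.38 FPKM with DAC and 6.16 FPKM untreated in HCC1937 (log2 1.19), and ISG15, a ubiquitin-like modifier, at 440 FPKM with DAC and 212 FPKM untreated (log2 1.05). In THP-1 ISG15 was at 19.79 FPKM with DAC and 12.81 FPKM untreated (log2 0.59), and USP18 at 3.38 FPKM with DAC and 2.48 FPKM untreated (log2 0.33). SOCS1, an inhibitor of receptor kinases, was at 4.49 FPKM with DAC and 2.47 FPKM untreated in HCC1937, and at 4.56 FPKM with DAC and 3.97 FPKM untreated in THP-1.

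Among 38 other interferon-stimulated genes kept in HCC1937, 7 were higher and 0 lower (5 and 4 higher under the other scalings), at a median log2 difference of 0.53. Of the 38, 31 stood above 0, beside 66.2% of all genes kept in HCC1937. The 7 were IFI27, IFI6, PARP12, RSAD2, MX1, SAMD9 and IFITM2. IFI27, a mitochondrial protein widely used as an interferon marker, was at 147 FPKM with DAC and 27.25 FPKM untreated (log2 2.39), and IFI6 was at 345 FPKM with DAC and 71.05 FPKM untreated (log2 2.26). PARP12, an antiviral ADP-ribosyltransferase, was at 15.95 FPKM with DAC and 5.55 FPKM untreated (log2 1.37). That lies between OAS2 and OAS3 on log2(FPKM + 1), while its FPKM ratio of 2.87 was just below that of OAS2 (2.90). MX1, a GTPase that blocks influenza virus, was at 14.17 FPKM with DAC and 5.28 FPKM untreated (log2 1.27). The members on the same side as OASL included LY6E, a virus entry modulator, at 456 FPKM with DAC and 671 FPKM untreated (log2 -0.56), and GBP1, a GTPase induced by interferon gamma, at 4.66 FPKM with DAC and 7.66 FPKM untreated (log2 -0.61). Both were chosen after their values were seen. In THP-1 LY6E was higher, at 37.6 FPKM with DAC and 25.49 FPKM untreated (log2 0.54), and GBP1 was at 0.3 FPKM with DAC and 0.05 FPKM untreated. In THP-1 3 of 34 were higher (2 under median-of-ratios scaling) and 0 lower, at a median of 0.40, and 31 of the 34 stood above 0, beside 65.0% of all genes kept in THP-1. LGALS3BP, a secreted glycoprotein, was at 7.86 FPKM with DAC and 0.93 FPKM untreated (log2 2.20), IFI27 at 6.01 FPKM with DAC and 0.64 FPKM untreated (log2 2.10), and IFITM3, which restricts virus entry, at 76.18 FPKM with DAC and 35.94 FPKM untreated (log2 1.06). IFITM3 is the one lost under median-of-ratios scaling, at 0.97. Over all 7 lists, 11 of 74 kept genes were called higher in HCC1937, beside 10.3% of all genes kept, and 3 of 67 in THP-1, beside 1.14%.

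**Figure D4:**
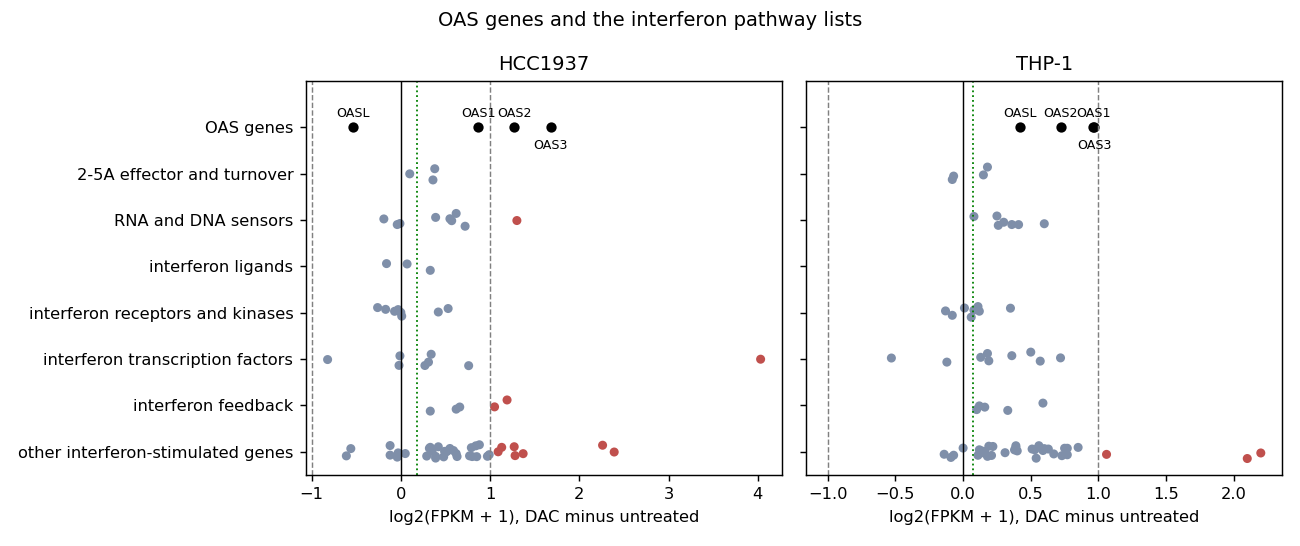
Differences in log2(FPKM + 1), DAC minus untreated, of the OAS genes (black) and of 7 gene lists of the interferon pathway in HCC1937 and THP-1. Each point is a kept gene, red points are list genes past 2-fold (dashed lines), and the dotted line is the median of all genes kept, 0.19 in HCC1937 and 0.07 in THP-1. OASL (-0.54) lies left of 0 in HCC1937, while OAS1 (0.87), OAS2 (1.27) and OAS3 (1.68) lie right of it.

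The genes most like each member over the 4 libraries were found by Euclidean distance of log2(FPKM + 1) among 9797 other genes kept in both lines. For OASL the nearest was KLHDC7B, at a distance of 0.49, with 52.65 FPKM with DAC and 75.04 FPKM untreated in HCC1937, and 1.21 FPKM with DAC and 0.91 FPKM untreated in THP-1. CAV1, the main protein of caveolae, followed at 0.57, and PTK7 at 0.63. The distance reflects level as well as change with DAC. PTK7 was at 46.25 FPKM with DAC and 41.26 FPKM untreated in HCC1937, on the other side from OASL. CAV1 was lower with DAC in HCC1937 (37.14 and 58.22 FPKM) and nearly level in THP-1 (1.94 and 1.83 FPKM). For OAS1 the nearest were TAF9B (0.32), RILP (0.34) and PARP14 (0.35), of which PARP14 is itself interferon-stimulated. For OAS2 they were SDC3 (0.38), C8G (0.43) and CORO6 (0.48). For OAS3 they were SPHK1 (0.74), PLSCR1 (0.90) and TOR1B (0.92), with PLSCR1 again on the list of interferon-stimulated genes. The larger distances of OAS3 mean that no gene followed its 4 values as closely as was found for the other members.

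Of the nearest protein-coding genes on the chromosome, none was called in either line. Over all genes kept, 10.3% were called higher in HCC1937 and 1.14% in THP-1, and 1.44% and 0.364% were called lower. Several neighbours were not kept, and among so few genes the absence of a call is near those shares. Of the 3 genes before OAS1, RPL6 had log2 differences of 0.01 in HCC1937 and 0.01 in THP-1, PTPN11 of 0.25 and 0.02, and RPH3A was not kept in either line. Of the 3 after OAS2, DTX1 was not kept in either line, RASAL1 had 0.20 in HCC1937, and CFAP73 had 0.52 in HCC1937 at 1.73 FPKM with DAC and 0.9 FPKM untreated. Around OASL, SPPL3 had -0.22 in HCC1937 and 0.11 in THP-1, and CAMKK2 0.05 and 0.05. P2RX4, an ATP-gated channel, had -0.71 in HCC1937, at 5.02 FPKM with DAC and 8.87 FPKM untreated, and -0.02 in THP-1. P2RX7 was kept in THP-1 alone (-0.02).

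**Figure D5:**
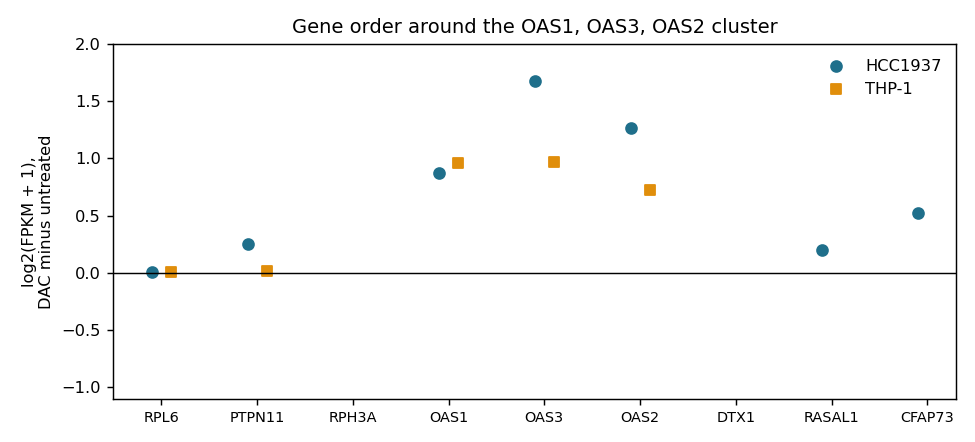
Differences in log2(FPKM + 1), DAC minus untreated, of OAS1, OAS3 and OAS2 and the 3 nearest protein-coding genes on each side of the cluster in chromosome order, in HCC1937 (circles) and THP-1 (squares); genes without a point were not kept or had no value. OAS1, OAS3 and OAS2 stand at 0.72 to 1.68, and the neighbours with a point at 0.01 to 0.52.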

How the data were processed

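Per the labels' protocols, mRNA was purified from extracted total RNA, and TruSeq (Illumina) libraries were built. STAR, HTSeq, cutadapt, FastQC and hg38 are named in the submitters' processing notes; versions, gene annotation and strand setting are not given in the sources used here. The deposited table states no unit, and FPKM made by the authors was assumed: for short genes (50 to 250 bases, GENCODE 29), value times exon length was a whole multiple of 1 step per library, with a tolerance of 0.1, in 92.0% to 94.4% of cases. That step gave the depth. THP-1 values, of the same kind, are given for 23440 of 59533 genes and may use other gene lengths. From the table, 1079 lines of 76 repeated symbols were left out.

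Genes were kept at 1 FPKM in at least 1 library of a pair. The plan named FPKM from an earlier description of these files, and the members and lists were chosen with earlier results of these data known. Read numbers behind the exact (Clopper-Pearson) 95% intervals of ratios, and the exact Poisson intervals of levels, use the longest GENCODE transcript as length. The naming rule took the members, up to 3 genes per list and line by absolute difference, the 3 nearest in pattern per member and the 3 neighbours on each side; some genes it takes are not reported here. limma 3.58.1 in R 4.3.3 was run on log2(FPKM + 1) with an intensity trend. Python 3.11.15, numpy 2.4.6, pandas 2.3.3, scipy 1.17.1 and matplotlib 3.10.9 were used. The size rule and limma were run on simulated data in which each changed gene had the same change in both lines. The real pairs differ in line, dose and time, so that run does not show how limma performs on them. Alternatives were 2 scalings within pairs, other pseudocounts, filters and sizes of change, other limma settings and, chosen after seeing the data, the counting interval as a rule.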

Additional observations from a re-analysis of the deposited data

Results flagged for a closer look

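OASL had a ratio of DAC over untreated of 0.681 in HCC1937 and 1.68 in THP-1, on opposite sides of 1 with both counting intervals clear of it. OASL was not alone in this. Of 74 genes of the pathway lists with an interval in both lines, 9 had the same kind of split. Of these, 5 were lower in HCC1937 and higher in THP-1, and 4 the reverse. How often genes outside the sets searched here have such a split was not counted, so 9 of 74 has no background share. The intervals use the values as deposited, and whether each split holds under the other scalings was not tested. In all 15 genes had it, counting OASL, the marker lists and the genes nearest in pattern. The difference between the lines was not tested for any of them, since each rests on 1 pair of libraries per line, and dose and time differ.

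The 5 pathway genes on the same sides as OASL were IRF1 (0.544 in HCC1937 and 1.15 in THP-1), LY6E (0.68 and 1.48), GBP1 (0.608 and 6.0), IFITM3 (0.921 and 2.12) and DHX58, a helicase related to RIG-I (0.867 and 1.34). GBP1 was at 0.3 FPKM with DAC and 0.05 FPKM untreated in THP-1. The 4 on the reverse sides were IRF8 (40.5 in HCC1937 and 0.693 in THP-1), IRF5 (1.28 and 0.922), SAMHD1, which depletes nucleotides (1.45 and 0.941), and TDRD7 (1.45 and 0.901). IRF8 in HCC1937 reached 0.81 FPKM with DAC and 0.02 FPKM untreated.

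Among markers, KRT8 had 0.928 in HCC1937 and 2.37 in THP-1, and CD14 had 0.812 and 1.46. TP63 had 7.79 in HCC1937 and 0.735 in THP-1, and SPI1 had 6.25 and 0.856, where SPI1 was at 0.5 FPKM with DAC and 0.08 FPKM untreated in HCC1937. KLHDC7B, the gene nearest to OASL in pattern, had 0.702 in HCC1937 and 1.33 in THP-1. It was picked for that likeness, so its opposite ratios are no separate observation.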

How the results depend on the processing

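In HCC1937 the 2 OAS calls (OAS2 and OAS3) held under both scalings, pseudocount 0.1, both filters and the counting interval as a rule; 3 passed at 1.5-fold, and a pseudocount of 10 left 1, OAS3, with OAS2 at 0.51. In THP-1 the count of OAS genes called higher was 0, against 2 with a pseudocount of 0.1 and 3 at 1.5-fold. OASL stayed below 0 in HCC1937 (-0.85 to -0.46) and above 0 in THP-1 (0.09 to 0.69) under every scaling and pseudocount; with genes of at least 5 FPKM it was not kept in THP-1. Over the pathway lists, 11 of 74 kept genes were called higher in HCC1937, beside 1452 of all 14058 genes kept. Under median-of-ratios scaling 7 of 73 were, beside 1090 of 13844. Under upper-quartile scaling 6 of 73 were, beside 1063 of 13835, so both shares were near those of all genes. Of the 74, 18 were higher with a pseudocount of 0.1, 4 with a pseudocount of 10 and 27 at 1.5-fold. The counts over all 14058 genes were 2323, 131 and 3084. Of the list genes 0 were lower in HCC1937, against 1 under each scaling and 2 at 1.5-fold. In THP-1, 3 of 67 list genes were higher, against 7 with a pseudocount of 0.1, 0 with a pseudocount of 10 and 15 at 1.5-fold. The counts over all 12075 genes kept there were 138, against 297, 3 and 398. limma called 0 genes in each of the 7 settings, and the OASL mean over both lines turned to 0.069, against -0.063, with a pseudocount of 0.1. No paired analysis was possible because each group has 1 library and the labels give no replicate numbers, other than the limma fit itself, which pairs DAC with untreated within each line (n = 2 pairs). Among the members, depth limits OASL in THP-1 most, and lengths taken from GENCODE make all read numbers approximate.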
